A study of Mus musculus with 2 samples.

Results

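Tcf21-positive cells without epicardial keratins were selected from dissociated mouse hearts at E12.5 on their own transcript counts. A cell entered the gate with at least 2 unique molecular identifiers (UMIs, each marking 1 captured transcript) of Tcf21, at most 1 UMI over the keratin set Krt18, Krt19, Upk3b and Tm4sf5, at most 1 over the endothelial genes Pecam1, Cdh5 and Egfl7, at most 2 over the cushion genes Car3, Cthrc1, Msx1 and Pdlim3, and under 30 UMIs per 10000 of Tnnt2 and Tnnc1, both cardiac troponin genes. Every cell also had at least 1000 UMIs, at least 500 genes and no more than 20% mitochondrial UMIs. The gate held 443 of 8740 cells, 281 of 4640 in the mutant and 162 of 4100 in the control. The mutant library carried Tbx18-Cre, Prmt1 fl/fl and YFP/+, and the control library Tbx18-Cre and YFP/+, so both carried the Cre driver and the reporter. Prmt1, an arginine methyltransferase gene, is the deleted gene, and the title calls the deletion epicardial, that is, in the cell layer that covers the heart. Tbx18-Cre is active wherever Tbx18 was expressed, which is not only the epicardium. There was 1 library per genotype. The sources used here do not state how many embryos were used, their sex or any sort. No difference has a replicate check, no test was possible, and every 95% interval covers counting error only.

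Tcf21 encodes a basic helix-loop-helix transcription factor of the epicardium and of the mesenchymal cells that leave it, and it is needed for cardiac fibroblasts to form. Epicardium-derived cells lose their epithelial keratins and surface proteins as they enter the heart wall, where they become fibroblasts and the mural cells that surround vessels. Cushion mesenchyme, from which the valves form, comes mainly from the endocardium. For comparison, gates were set in the same cells for an epicardial group (at least 4 UMIs of the keratin set), a cushion group (at least 5 UMIs of the cushion genes), an endothelial group (at least 3 UMIs of the endothelial genes) and cardiomyocytes (at least 30 UMIs per 10000 of the troponin genes). The cushion and endothelial gates allowed at most 1 Tcf21 UMI, so low Tcf21 there was set by the definition. No barcode of a gated cell was found in the other library, and 8 barcodes were shared among all cells.

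The gated cells had fewer UMIs than the libraries as a whole, a trait they shared with other low-muscle cells. Their median was 2349 UMIs and 1018 genes in the mutant and 2089 UMIs and 930.5 genes in the control, while the median over all cells of the library was 4046 and 5897 UMIs. Over all low-muscle cells the median was 2645.5 and 2332.5 UMIs. The cushion gate had 2143 and 1863 UMIs, and the epicardial gate 3033 and 2696. The limits of the gate are in raw UMIs, so entry depends on the depth of a cell. Mitochondrially encoded genes made up a median of 2.75% of UMIs in mutant and 2.68% in control gated cells. Ribosomal protein genes took 22.3% of the UMIs in the mutant and 20.8% in the control, and haemoglobin genes 1.14% and 2.50%. Tcf21 reached 16 UMIs in the highest mutant cell and 13 in the highest control cell, and 86 mutant and 49 control cells stood exactly at the minimum of 2. Of the low-muscle cells with at least 2 Tcf21 UMIs, 1063 in the mutant and 444 in the control, the cushion limit was passed by 477 and 193, the keratin limit by 307 and 99, and the endothelial limit by 61 and 16.

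The edge of the gate was not sharp. Cells with 1 Tcf21 UMI that passed every other limit, just outside, numbered 100 in each library and had 2122 CPM of Ptn in the mutant and 2245 in the control, where CPM is the UMI count of a gene scaled to the same total in every group. Those with 2 Tcf21 UMIs, just inside, had 2179 and 2891 CPM. At the keratin limit, the 52 mutant cells with 1 keratin-set UMI had 32.1 CPM of Upk1b, a uroplakin of the epicardial surface, and the 60 mutant cells with 2 had 83.1 CPM. The 19 control cells with 1 such UMI had 178 CPM of Upk1b and the 17 with 2 had 154.5 CPM, so in these few control cells the gene was no lower inside the limit than outside it.

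Tcf21 and Ptn, the markers of the group, were compared across the gates. Tcf21, which the rule used, stood at 1551 CPM in mutant (1462 to 1643) and 1522 CPM in control gated cells (1403 to 1649). In the epicardial gate it was 471 and 314 CPM, in the cushion gate 126 and 111, and in the cardiomyocyte gate 8.27 and 10.3. Ptn, a heparin-binding growth factor, had 2417 CPM in mutant and 2863 CPM in control gated cells. The epicardial gate, with 2173 and 2336 CPM of Ptn, came close to these levels. Ptn therefore set the gated cells apart from the cushion gate, at 1233 and 1380 CPM, and from the endothelial gate, at 246 and 266 CPM, far more than from the epicardial one.

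The mesenchymal label held in part. Pdgfra, the receptor that marks cardiac fibroblast precursors, had 137 CPM in mutant and 73.3 CPM in control gated cells, above the epicardial gate at 18.4 and 4.96 CPM and near the cushion gate at 90.3 and 93.6 CPM. Fibroblast matrix genes did not peak in the gate. Col1a1, a chain of type I collagen, had 249 and 250.4 CPM there against 865 and 1027 CPM in the epicardial gate. Dcn, the proteoglycan decorin, had 419 and 397 CPM against 939 and 895 CPM. Postn, a matricellular gene, lay the other way, at 91.4 and 32.9 CPM against 1.15 and 0 CPM in the epicardial gate. It was highest in the cushion gate, at 473 and 352 CPM. Vim, an intermediate filament of mesenchymal cells, was at 769 and 374 CPM, under the epicardial, cushion and endothelial gates in both libraries. The cells are therefore called Tcf21-positive gated cells here.

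Epicardial identity genes outside the rule were present at reduced levels. Wt1, an epicardial transcription factor, was at 37.6 CPM in mutant and 32.9 CPM in control gated cells, and at 86.8 and 108 CPM in the epicardial gate. Its UMIs occurred in 8.90% of mutant cells (5.84 to 12.9%) and 6.79% of control cells (3.44 to 11.8%). In the cushion gate, with median depths of 2143 and 1863 UMIs, Wt1 was seen in 0.343% and 0.266% of cells, so the signal in the gate lay above that level. Aldh1a2, the retinoic acid synthesizing enzyme, had 28.2 and 15.2 CPM in the gate, 150 and 209.7 CPM in the epicardial gate, and no UMI in the cushion gate. Upk1b was also lower in the gate in both libraries, with 6.72 and 22.8 CPM in the gate and 122.5 and 175 CPM in the epicardial one.

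Markers of other lineages were checked as whole lists. Of 10 immune markers, 3 had a UMI in mutant and 1 in control gated cells, 4 UMIs in each library, and Ptprc and Tyrobp had none. Of 10 neural crest and glial markers, 4 and 3 had a UMI, and Sox10 had none. Their sum was 43.0 and 60.7 CPM, low but above every other gate, with 9.20 and 8.69 CPM in the epicardial and 19.8 and 23.1 CPM in the cushion gate. The pericyte gene Rgs5 had 0 and 1 UMI, the smooth muscle myosin Myh11 none, and Kdr, an endothelial receptor, none. Other mural genes were present, since 15 and 14 of 18 mural and smooth muscle genes had a UMI. Their sum was 2884 CPM in mutant and 4982 CPM in control gated cells, and 2826 and 3439 CPM without cells of at least 5000 UMIs. It was 2398 and 3442 CPM in the epicardial gate and 3680 and 5419 CPM in the cushion gate. In the cardiomyocyte gate it was highest, at 27705 and 28201 CPM, so this sum does not mark mural cells alone. The 13 endothelial markers summed to 395 CPM in mutant and 341 CPM in control gated cells, against 6005 and 4883 CPM in the endothelial gate. The rule limits Pecam1, Cdh5 and Egfl7 in gated cells and the endothelial gate requires them, so this contrast was set in part by the definitions. Cardiomyocyte and erythroid transcripts were present. Of 20 cardiomyocyte markers 19 were detected in each library, with sums of 2542 CPM in mutant and 4370 CPM in control gated cells. Of 12 erythroid markers 12 were detected in mutant and 11 in control gated cells, with sums of 11650 and 25334 CPM, under the 65754 and 57536 CPM of the epicardial gate.

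Few genes were particular in level to the gated cells. Of 1958 genes with at least 50 CPM in gated cells of both libraries, 5 (0.255%) were at least 2-fold above the highest other group in both, on the scale log2((CPM + 10)/(CPM of the other group + 10)). Tcf21 itself was among them, as were Rbm46, Lsp1 and Rem1. They were picked for this pattern, so their values are a description.

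**Figure D1:**
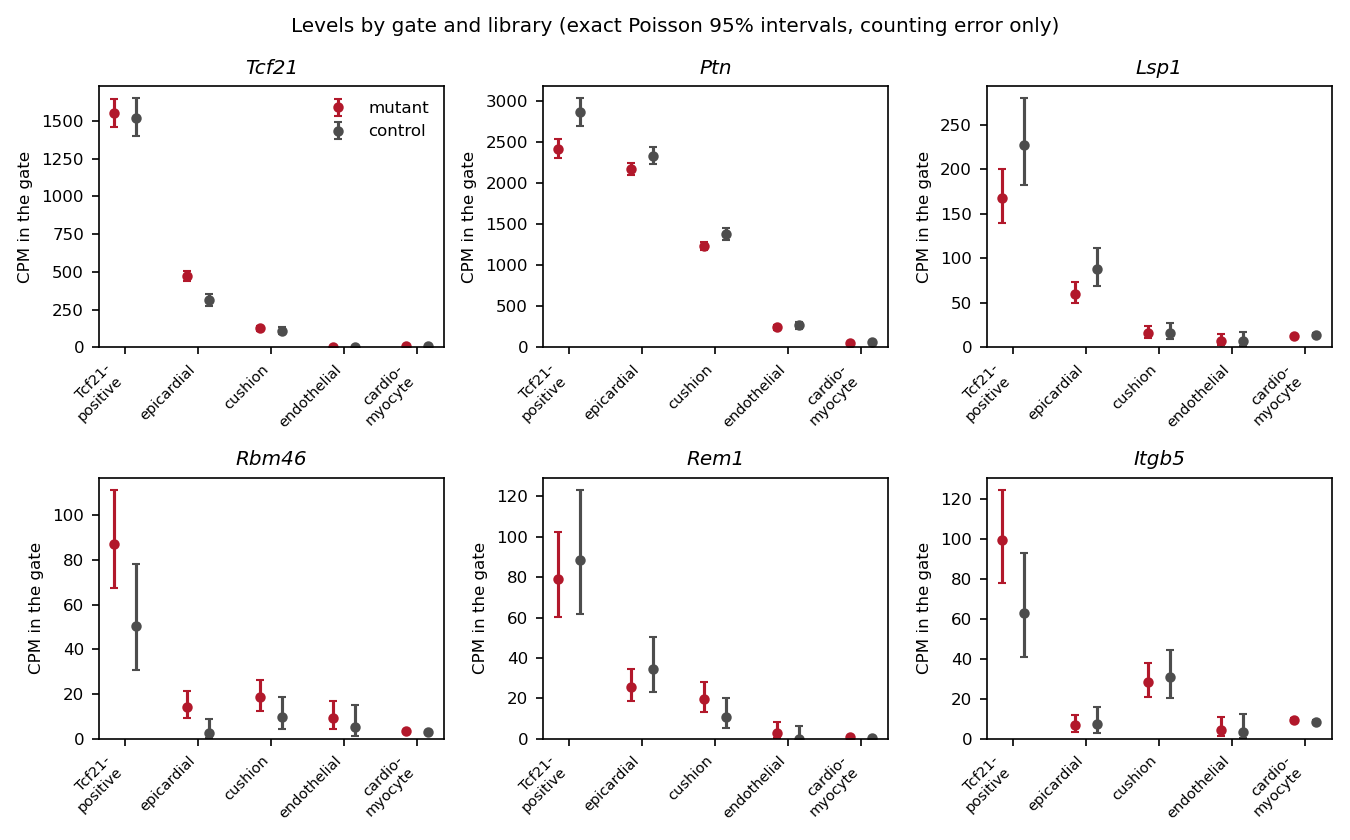
Level in CPM (y axis, linear, starting at 0) of 6 genes in the 5 gates (x axis) of the mutant (red, left) and control (grey, right) library, with exact Poisson 95% intervals. Lsp1, Rbm46, Rem1 and Itgb5 stand highest in the Tcf21-positive gate in both libraries, while Ptn in that gate, at 2417 and 2863 CPM, lies near its epicardial level of 2173 and 2336 CPM.

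Lsp1, an actin-binding protein best known from leukocytes, had 168 and 228 CPM in the gate and 60.4 and 88.1 CPM in the epicardial gate. Rbm46, an RNA-binding protein studied mainly in germ cells, had 87.3 CPM in mutant and 50.6 CPM in control gated cells, from 65 and 20 UMIs. Rem1, a small GTPase that binds calcium channel subunits, had 79.3 and 88.5 CPM.

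The 11 genes that followed by this measure were Itgb5, Eva1b, Ugp2, Gucy1b1, Rhox5, Phlda3, Lbh, Lsm7, Pclaf, Uba7 and Cd302, with leads of 0.47 to 0.84 on the log2 scale in the library where each was lower. Itgb5, an integrin subunit that takes part in vitronectin binding, had 99.4 CPM in mutant and 63.2 CPM in control gated cells, and 6.90 and 7.44 CPM in the epicardial gate. Lbh, a transcriptional regulator of limb and heart, had 450.2 and 460.2 CPM in the gate and 295 and 261 CPM in the epicardial gate. Pclaf, a PCNA-binding factor of replicating cells, had 1213 and 1409 CPM, above the cushion gate at 848 and 984 CPM. Itgb5, Rbm46 and Rhox5 had higher values in the mutant gate, and Lsp1, Lsm7 and Pclaf in the control gate.

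The gated cells made up 6.06% of mutant cells (5.39 to 6.78%) and 3.95% of control cells (3.38 to 4.59%), which is 2.10 percentage points more in the mutant (1.19 to 3.02). Cardiomyocytes by the troponin gate were 34.7% of mutant and 49.2% of control cells, and the epicardial, cushion and endothelial gates all had larger shares in the mutant too. Among low-muscle cells alone the shares were 9.27% in the mutant and 7.78% in the control, and the interval of the difference, 1.49 points, ran from -0.087 to 3.01 and included 0. With 1 Tcf21 UMI as the minimum that difference was -0.018 points (-1.89 to 1.81). With every cell first thinned to 1000 UMIs and 1 Tcf21 UMI required, which lowers the keratin, endothelial and cushion UMIs of a cell too, it was 4.14 points (2.17 to 6.07). Of the Tcf21-positive and epicardial gates together, the gated cells were 43.6% in the mutant and 47.8% in the control, a difference of -4.15 points (-10.7 to 2.37). A share cannot tell apart more cells of a kind in the heart from more of them surviving dissociation and capture.

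**Figure D2:**
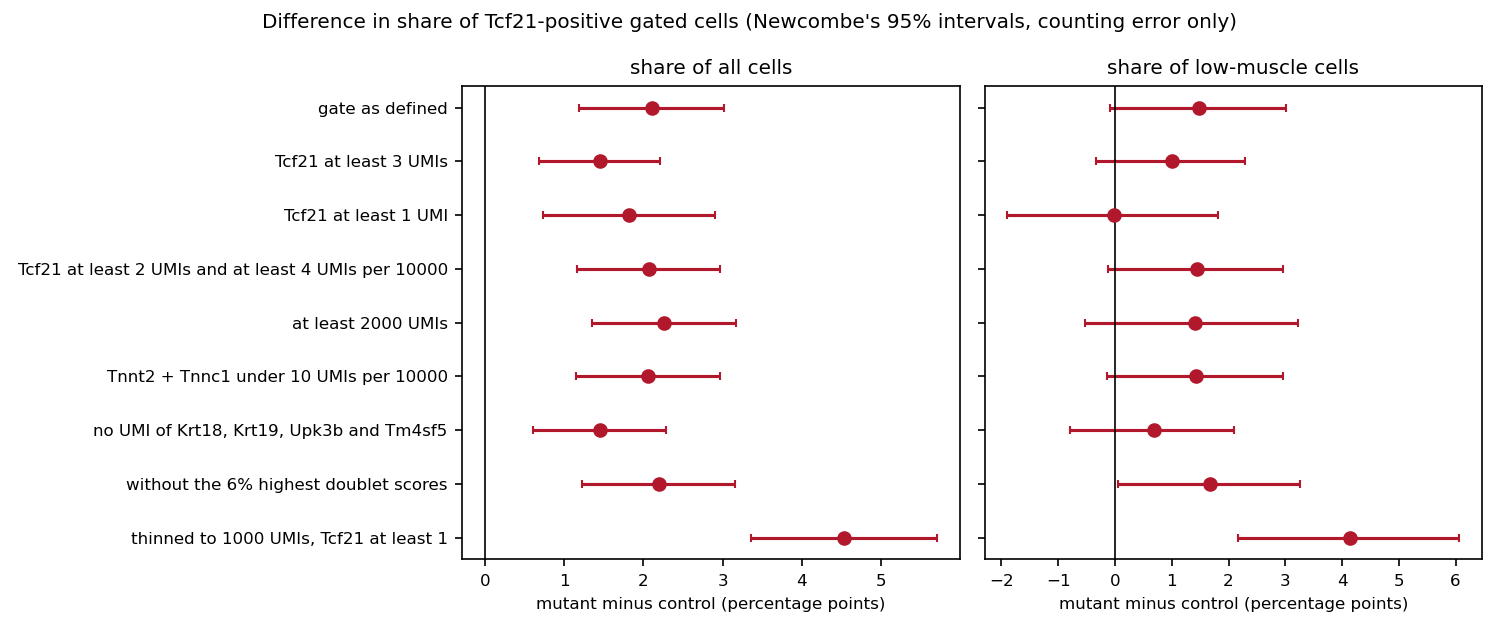
Difference in the share of gated cells, mutant minus control in percentage points (x axis), among all cells (left) and among low-muscle cells (right), for the gate as defined and 8 other settings (y axis), with Newcombe's 95% intervals. All 9 differences among all cells lie above 0, from 1.45 to 4.54 points, while 7 of the 9 intervals among low-muscle cells include 0.

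Prmt1 itself (chromosome 7, 44975989 to 44986568, minus strand, GRCm38) had 507 CPM in mutant gated cells (457 to 560) and 652 CPM in control gated cells (575 to 737). The mutant level was 77.7% of the control level (66.1 to 91.3%). It was detected in 69.4% of mutant and 73.5% of control gated cells, and in 40.6% and 46.9% after thinning each cell to 1000 UMIs. In the epicardial gate the levels were 340 and 460.3 CPM. In the cushion gate they were 747 and 660.3, in the endothelial gate 606 and 533, and in the cardiomyocyte gate 716 and 603, so Prmt1 was lower in the mutant library in the 2 groups with Tcf21 or keratins and higher in the other 3. The floxed exons are not stated in the sources used. Transcripts that lack them can still be counted, so these UMIs do not measure the deletion in each cell.

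Of the other arginine methyltransferase genes and cofactors, 6 reached a mean of 10 CPM. Prmt5, the main symmetric enzyme, had 16 UMIs in the mutant and 3 in the control, or 21.5 and 7.59 CPM, and Carm1, an asymmetric one, 5 and 7 UMIs, or 6.72 and 17.7 CPM. Both counting intervals of these ratios included no change. Prmt2 had 16.1 and 7.59 CPM, Ndufaf7, which methylates a subunit of respiratory complex I, 25.5 and 32.9. Wdr77, the partner of Prmt5, was at 20.2 and 20.2 CPM, and Clns1a, which recruits Prmt5 substrates, at 103.5 and 104 CPM.

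Among 2183 genes with a mean of at least 50 CPM, 130 (5.96%) were at least 1.5-fold higher in mutant gated cells and 84 (3.85%) at least 1.5-fold lower, on the scale log2((CPM mutant + 10)/(CPM control + 10)). The median of all of them was 0.016. With list members down to a mean of 10 CPM, where counts are smaller, 704 of 5748 genes (12.2%) were higher and 358 (6.23%) lower. Without cells of at least 5000 UMIs, 571 of the 5748 were higher and 407 lower. These values are the background for the list counts below, with and without those cells.

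A few deep cells carried much of the difference. In the mutant, 15 gated cells had at least 5000 UMIs and held 14.2% of the UMIs of the gate, and in the control 3 such cells held 9.03%. The pair of control cells with 19433 and 10790 UMIs had 25.7 and 9.27 troponin UMIs per 10000, under the limit of 30, and both were among the 6% of cells with the highest doublet scores in their library. Those same 2 cells held every one of the 54 UMIs of Cited1, a transcriptional coactivator, in the control gate, and 369 of its 406 UMIs of Actc1, the cardiac alpha-actin. Of the 15 mutant deep cells, 1 had 74 Actc1 UMIs and 25.2 troponin UMIs per 10000, and the others had at most 1 Actc1 UMI. In the mutant, 3 of the 15 were among the 6% with the highest doublet scores, the cell with 74 Actc1 UMIs included.

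The 12 lowest ratios were thus mostly those of muscle genes. Actc1 had 230 CPM in mutant and 1027 CPM in control gated cells (log2 -2.11), but 147 and 103 CPM once cells of at least 5000 UMIs were left out, and the ratio turned to 0.48. Cited1 had 9.41 and 137 CPM, and without the deep cells 7.83 CPM in the mutant and no UMI in the control. Smpx and Myl3, both striated muscle genes, and Chchd10, a mitochondrial protein of muscle, also changed sign, to 0.92, 0.24 and 0.01. Myl4, Myl2 and Ankrd1 stayed lower in the mutant at -0.80, -0.12 and -0.47, against -2.40, -2.02 and -1.56 with all cells. Of the 12, 5 were still past 1.5-fold without the deep cells.

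**Figure D3:**
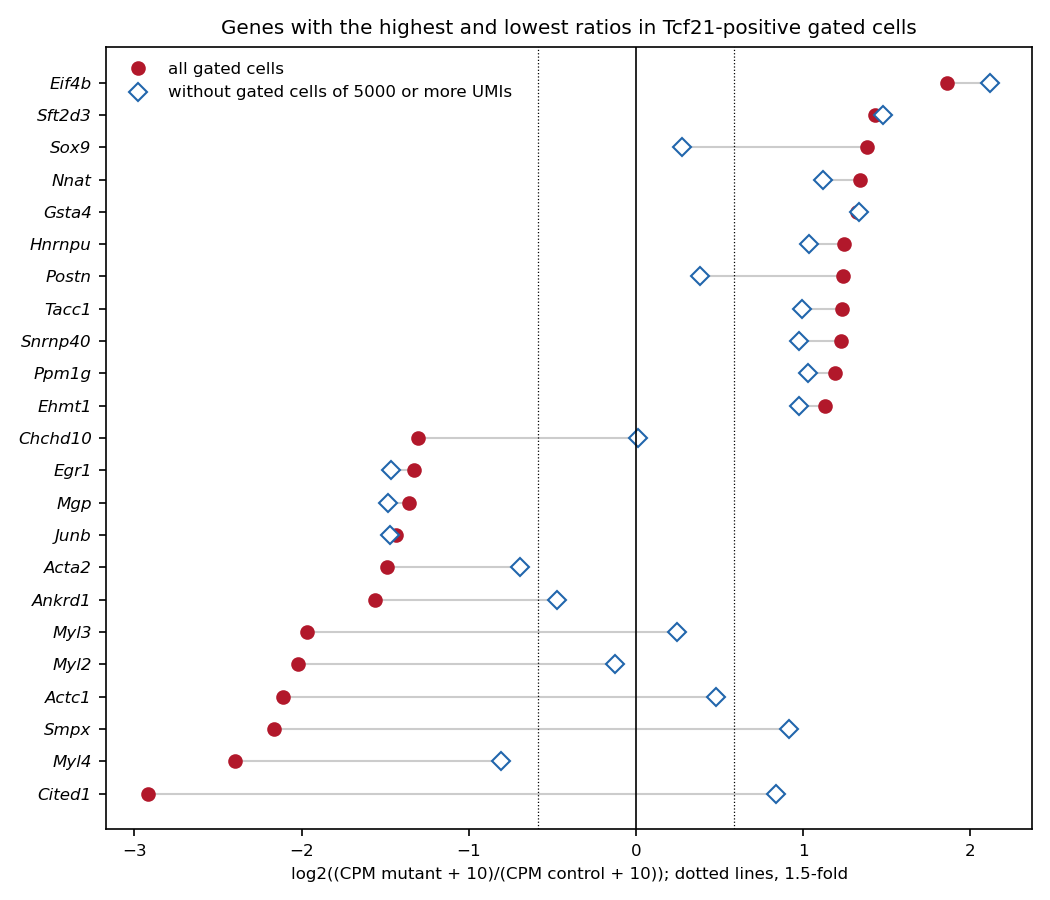
The log2 ratio of mutant over control (x axis) for 11 of the 12 genes with the highest and the 12 with the lowest ratios (y axis), with all gated cells (filled red) and without cells of at least 5000 UMIs (open blue); dotted lines mark 1.5-fold. The muscle genes, Cited1, Sox9 and Postn move far toward or past 0, while Junb, Mgp and Egr1 stay near -1.47, -1.48 and -1.47.

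Acta2, the smooth muscle actin that early cardiomyocytes and mural cells share, lay between. It had 614 CPM in mutant and 1745 CPM in control gated cells, and the 3 control deep cells held 348 of its 690 UMIs. Without deep cells it had 584 and 951 CPM, a log2 ratio of -0.69. In cells of 1000 up to 2000 UMIs the levels were 501 and 676 CPM, in those up to 3000 they were 558 and 729, and in those up to 5000 they were 689.7 and 1402. Acta2 was lower in the mutant in each depth class, and in the epicardial and cushion gates as well, at -1.33 and -0.93, but not in the endothelial gate, at 0.44.

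**Figure D4:**
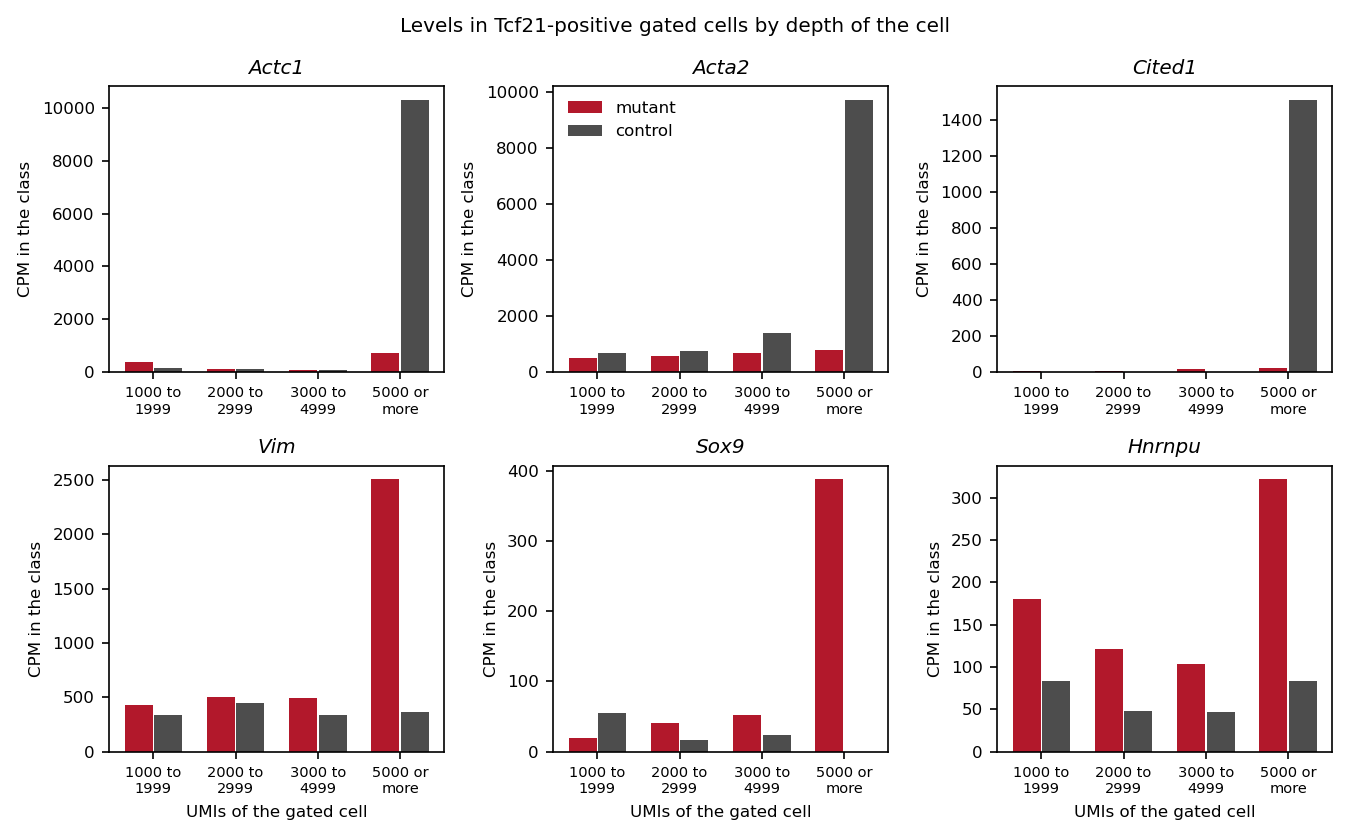
Level in CPM (y axis, linear from 0, its own scale in each panel) of 6 genes in gated cells of 4 depth classes (x axis, UMIs of the cell), mutant in red on the left and control in grey on the right of each pair. Actc1 and Cited1 are high only in the deepest control class (10329 and 1512 CPM), Vim and Sox9 only in the deepest mutant class (2504 and 387 CPM), and Hnrnpu is higher in the mutant in all 4 classes.

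Junb, Egr1 and Mgp were lower in the mutant with and without the deep cells. Junb and Egr1 are immediate early transcription factor genes that respond to stress and to dissociation. Junb had 28.2 CPM in mutant and 93.6 CPM in control gated cells, and Egr1 64.5 and 177 CPM. Fos, of the same class, had 102 and 182 CPM, and Ier2 973 and 1472 CPM. Of 20 immediate early genes measured, these 4 were past 1.5-fold lower and Nfkbia, an inhibitor of NF-kappa-B, was higher at 67.2 and 27.8 CPM, with a median of -0.20. Egr1, Fos and Ier2 were also lower in the mutant epicardial gate (-1.11, -0.95 and -0.78), while in the endothelial gate they were higher (0.55, 1.55 and 0.33), and Junb was at -0.23 and -0.66 in these gates. Whether the gates differ in this was not tested.

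Mgp, the matrix Gla protein that binds BMP ligands, had 150.5 CPM in mutant and 402 CPM in control gated cells, from 112 and 159 UMIs in 67 and 61 cells. Its ratio was alike in the epicardial gate (-1.71), near 0 in the cushion gate (0.02) and -0.44 in the endothelial gate. With Sfrp2, a Wnt antagonist (5.38 and 30.4 CPM), and Cxcl12, a chemokine of the outflow wall (12.1 and 30.4 CPM), all 3 measured outflow wall markers of 8 listed were lower. Their median, -1.36, was the lowest of the 33 lists with at least 3 measured genes, and -1.48 without the deep cells. The list was lower in the other low-muscle gates too, with medians of -1.61 in the epicardial, -0.33 in the cushion and -1.12 in the endothelial gate. Only 4 and 12 UMIs stand behind Sfrp2, and 9 and 12 behind Cxcl12.

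The 12 highest ratios included genes of RNA processing, and 10 of the 12 stayed past 1.5-fold without the deep cells. Hnrnpu, a nuclear scaffold and RNA-binding protein, had 157 CPM in mutant gated cells (130 to 188) and 60.7 CPM in control gated cells (38.9 to 90.3), and was seen in 85 and 21 cells. Eif4b, a translation initiation factor, had 53.8 CPM in mutant and 7.59 CPM in control gated cells, from 40 and 3 UMIs. For both genes the control gated cells had the low level. Control levels in the epicardial, cushion and endothelial gates were 198.5, 135 and 177 CPM for Hnrnpu and 47.2, 26.4 and 55.0 CPM for Eif4b, while the mutant levels in those gates were 176, 127 and 184 CPM for Hnrnpu and 48.9, 36.5 and 35.4 CPM for Eif4b.

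Other genes of this set were Snrnp40, a component of the U5 spliceosomal particle (72.6 and 25.3 CPM), Ehmt1, a histone H3 methyltransferase (61.8 and 22.8 CPM), and Ppm1g, a nuclear phosphatase (59.1 and 20.2 CPM). Nnat, an imprinted membrane protein gene, had 79.3 and 25.3 CPM. Gsta4, a glutathione transferase, had 84.7 and 27.8 CPM and was higher in the mutant epicardial gate too (0.83). Sft2d3 (57.8 and 15.2 CPM) and Tacc1 (55.1 and 17.7 CPM) were of the same set.

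Sox9 and Postn did not hold. Sox9, a transcription factor of cushion mesenchyme, had 88.7 CPM in mutant and 27.8 CPM in control gated cells, and Postn, the matricellular protein periostin, 91.4 and 32.9 CPM. Deep cells held 41 of the 66 mutant Sox9 UMIs and 36 of the 68 Postn UMIs. Without them the levels were 39.2 and 30.6 CPM for Sox9 and 50.1 and 36.1 CPM for Postn. In 5 mutant cells of 6767 to 12711 UMIs, chosen after their values were seen, Vim reached 28 to 70 UMIs, Sox9 6 to 10, Postn 3 to 9 and Tcf21 7 to 12. The cell of 9746 UMIs among them was in the 6% with the highest doublet scores. The 3 control deep cells had 1 to 10 Vim UMIs and none of Sox9 or Postn. Vim over the whole gate was 769 CPM in mutant and 374 CPM in control cells, and 481 and 375 CPM without deep cells.

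List medians also moved when these cells were left out. Of 9 measured cushion and valve genes, 3 (Sox9, Hapln1 and Snai1) were past 1.5-fold higher and none lower, with a median of 0.49 against 0.06 over all 5748 genes, and without deep cells the median was 0.00. Hapln1, a link protein of hyaluronan matrix, and Snai1, a repressor of epithelial genes, stayed past 1.5-fold at 1.30 and 0.81, from 24 and 14 UMIs in mutant and 2 and 2 in control gated cells. The TGF-beta and BMP list had 0.07, against 0.51 with all cells, with 3 genes past 1.5-fold higher against 4, and the mesenchymal transition list had 0.12, against 0.49. Tgfb2, a ligand that drives mesenchymal transition, was among their members that kept a higher mutant value, with 90.0 and 40.5 CPM and a log2 ratio of 0.75 without deep cells. Cardiomyocyte markers had a median of -0.67 with 9 of 16 lower, and 0.21 over the same 16 genes, with 1 lower and 4 higher, once the deep cells were left out. Their summed level was then 2414 CPM in mutant and 1718 CPM in control gated cells.

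**Figure D5:**
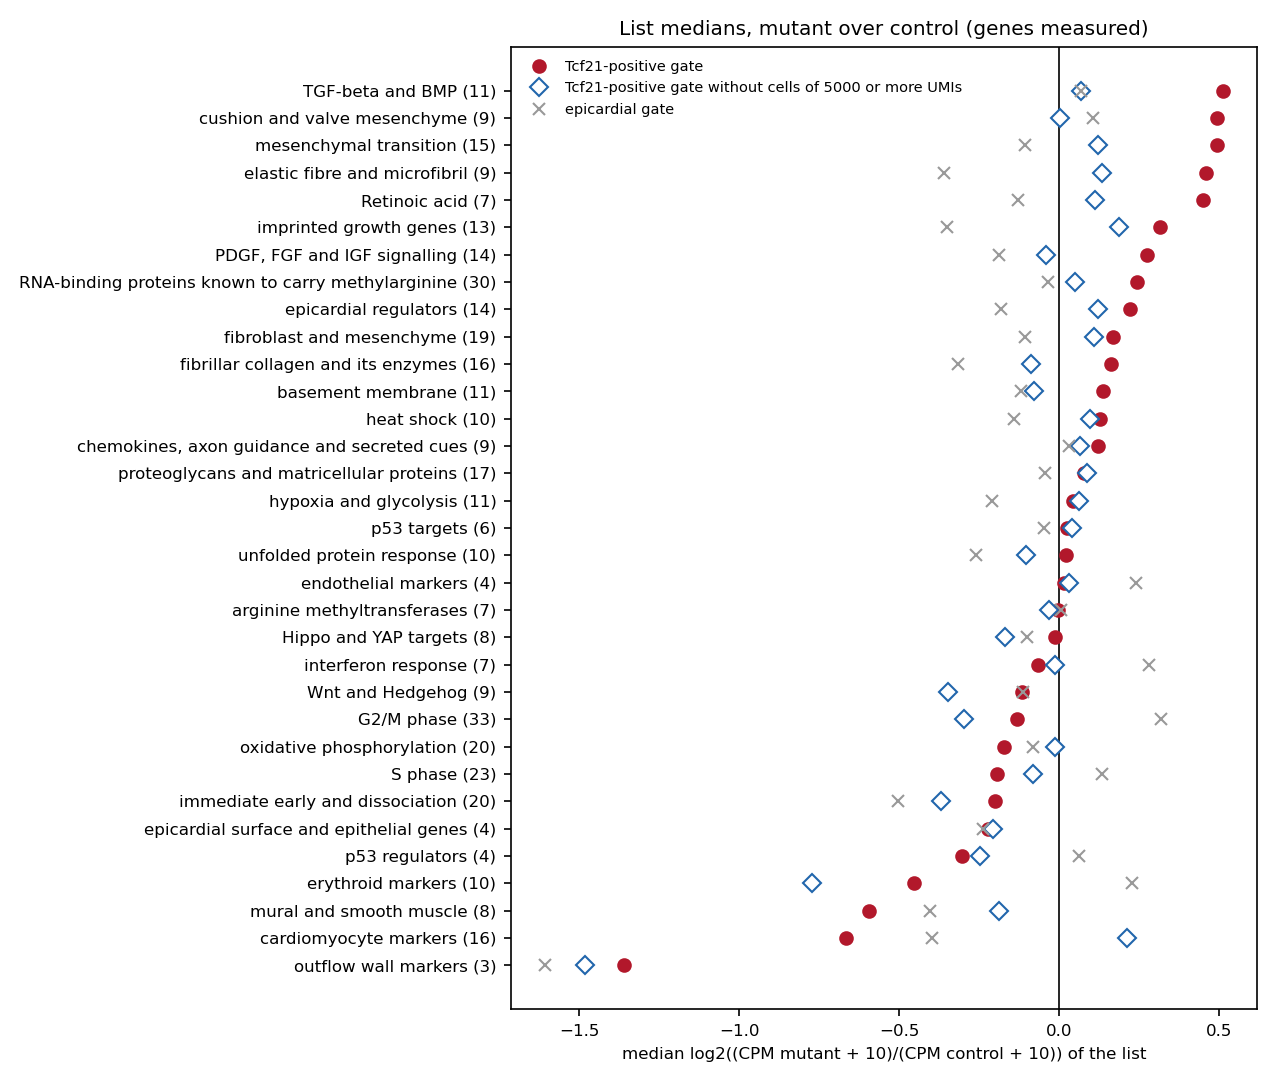
Median log2 ratio of mutant over control (x axis) for 33 gene lists (y axis, genes measured in brackets) in all gated cells (red), in gated cells under 5000 UMIs (open blue) and in the epicardial gate (grey crosses). In all gated cells 11 medians lie past 0.3 in either direction, and 4 do so without the deep cells.

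Fibroblast genes were unevenly placed. Of 19 measured, 4 (Vim, Pdgfra, Postn and Igfbp4) were past 1.5-fold higher and 2 (Lum and Prrx1) lower, and the median was 0.17. Without the deep cells 1 was higher and 2 were lower. Pdgfra was 187% of the control level (123 to 293%), with a log2 ratio of 0.69 without deep cells. In the epicardial gate the ratio was 0.92, from a control level of 4 UMIs, in the cushion gate -0.05 and in the endothelial gate -0.89. Lum, the proteoglycan lumican, had 28.2 and 65.8 CPM, 42.9% of the control level (23.0 to 79.3%). The main collagens were level or lower. Col1a1 was 99.3% of the control level (77.4 to 128%), Col1a2 74.9% (58.3 to 96.5%) and Col3a1 91.7% (73.2 to 115%), and without deep cells their log2 ratios were -0.36, -0.57 and -0.50. Sparc, a collagen-binding glycoprotein, was 110% (98.3 to 123%), Fn1, fibronectin, 113% (86.0 to 150%), and Mfap4, a microfibril protein, 92.4% (74.9 to 114%).

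The remaining fibroblast genes were Ptn, at 84.5% of the control level (78.4 to 91.1%), and Dcn, at 106% (86.9 to 129%), with Fstl1 at 137%, Twist1 at 146%, Tcf4 at 133% and Ly6e at 122.5%. Gsn had 12 and 3 UMIs and Prrx1 4 and 9. Of 8 measured mural and smooth muscle genes, 4 (Acta2, Cnn1, Myl9 and Pdgfrb) were past 1.5-fold lower and none higher, with a median of -0.60. Without the deep cells 2 were lower and the median was -0.19. Pdgfrb, a receptor of mural precursors, had 24.2 and 43.0 CPM, from 18 and 17 UMIs. Tagln, a smooth muscle actin-binding protein, was 76.3% of the control level (67.0 to 87.0%), Tpm1 67.6%, Tpm2 91.3% and Des 127.5%.

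Epicardial regulators were mostly alike. Of 14 measured, 3 (Nr2f2, Scx and Aldh1a2) were past 1.5-fold higher and none lower, beside 12.2% of all genes at that level. Without the deep cells Aldh1a2 was at 0.11 and 2 were past 1.5-fold. Nr2f2, a nuclear receptor, had 22 and 3 UMIs, or 29.6 and 7.59 CPM, and Scx, a transcription factor of tendon and epicardial progenitors, 25 and 6 UMIs, or 33.6 and 15.2 CPM. Tcf21 was 102% of the control level, but the rule required its UMIs in every gated cell, so its likeness was partly set by the gate. Meis2 was at 103%, Tbx20 122%, Hand2 122%, Gata4 135% and Gata6 149%, and the counting intervals of all these included 100%. Wt1 was at 114% and Tbx18 at 120%, with intervals that included 100% too. Sema3d had 17 and 8 UMIs, Meis1 14 and 6, and Osr1 9 and 8.

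Of 30 measured RNA-binding proteins known to carry methylarginine, 8 were past 1.5-fold higher and none lower, and the median was 0.24. Without the deep cells 4 were higher and 2 lower, with a median of 0.05. Hnrnpa1 had 314 CPM in mutant and 179.5 CPM in control gated cells, Hnrnpk 262 and 149 CPM, and Sfpq 101 and 55.6 CPM. Abundant members differed less, with Npm1 at 1091 and 819 CPM, Alyref at 703 and 771 CPM and Serbp1 at 614 and 627 CPM.

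G2/M genes leaned lower in the mutant gate, while the S phase measures differed in direction. The median of 33 G2/M genes was -0.13, with 2 past 1.5-fold lower (Ckap2l and Kif20b), a share near the 6.23% of all genes. Without the deep cells it was -0.30, with 6 lower, beside 407 of all 5748 genes. The median stayed under 0 in 15 settings of the processing (-0.39 to -0.03). The summed level of the list was 3749 CPM in mutant (3611 to 3891) and 4484 CPM in control gated cells (4277 to 4697). The same list had medians of 0.32 in the epicardial, 0.24 in the cushion and 0.49 in the endothelial gate, a difference that was not tested. Ube2c, which helps end mitosis, had 379 CPM in mutant and 513 CPM in control gated cells, and Cdk1, the mitotic kinase, 281 and 369 CPM. After thinning each cell to 1000 UMIs, 49.8% of mutant (43.8 to 55.8%) and 58.6% of control gated cells (50.6 to 66.3%) had at least 2 UMIs over the list, and the intervals overlapped. Of 23 S phase genes 2 were past 1.5-fold higher and 1 lower, with medians of -0.20 and, without the deep cells, -0.08. After the same thinning 43.8% of mutant (37.9 to 49.8%) and 38.9% of control gated cells (31.3 to 46.9%) had at least 2 S phase UMIs, so these shares lay the other way.

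Genes of oxidative phosphorylation had a median of -0.17 over 20 measured, with Uqcrq (1039 CPM in mutant and 1806 CPM in control gated cells) and Cycs (708 and 1118 CPM) past 1.5-fold lower. Without the deep cells the median was -0.01 and 1 gene was past 1.5-fold lower. Uqcrq was then at -0.64, and Cycs, at -0.50, was no longer past 1.5-fold. Uqcrq, a subunit of respiratory complex III, was lower in the mutant in the epicardial, cushion and endothelial gates too, at -0.57, -0.46 and -0.61. The retinoic acid list had a median of 0.45 over 7 genes and 0.11 without deep cells. Crabp1, one of its members and a retinoic acid-binding protein, had 40.3 CPM in mutant and 15.2 CPM in control gated cells.

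Matrix lists depended on the deep cells to different degrees. Elastic fibre genes had a median of 0.46 over 9 measured and 0.13 without the deep cells, and Fbn1 and Fbn2, both fibrillins, were past 1.5-fold higher, with 51.1 and 56.4 CPM in mutant against 27.8 and 30.4 CPM in control gated cells. Fibrillar collagen genes had medians of 0.16 and -0.09, and proteoglycans and matricellular proteins 0.08 and 0.09. In that last list 5 of 17 were past 1.5-fold higher and 3 lower, and 2 and 4 without the deep cells. Its lower members Mgp, Lum and Thbs1, the matricellular thrombospondin, kept their ratios, at -1.48, -1.17 and -1.50 without those cells, though Thbs1 had only 4 and 13 UMIs. Basement membrane genes had 0.14 and -0.08, though Col18a1 (65.8 CPM in mutant and 25.3 CPM in control gated cells) and Col4a1 (65.8 and 30.4 CPM) kept log2 ratios of 0.85 and 0.64 without the deep cells. Among imprinted growth genes, with medians of 0.32 and 0.19, Peg3, a zinc finger protein, had 289 and 149 CPM.

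Signalling and stress lists varied in direction. PDGF, FGF and IGF signalling had a median of 0.27 and -0.04 without the deep cells, Wnt and Hedgehog -0.12 and -0.35, and Hippo targets -0.01 and -0.17. The p53 regulators had -0.31 and -0.25, and p53 targets 0.03 and 0.04. Heat shock genes had 0.13, the unfolded protein response 0.02, hypoxia 0.04, interferon -0.07 and secreted cues 0.12. Xbp1, a transcription factor of the unfolded protein response, was the member of its list past 1.5-fold, with 76.6 and 37.9 CPM. Of 4 measured epicardial surface genes 1 was lower, and of 4 endothelial markers none was past 1.5-fold.

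Red cell and sex-linked transcripts differed between the libraries too. Erythroid markers had a median of -0.45 over 10 genes, with 4 past 1.5-fold lower and 1 higher. Without the deep cells it was -0.77, with 8 lower and none higher. Haemoglobin Hbb-bs had 293 CPM in mutant and 3067 CPM in control gated cells, and 3 cells in each library held 49.8% and 51.1% of all haemoglobin UMIs of the gate. Xist, which marks female cells, was found in 18.5% of mutant (14.1 to 23.5%) and 5.56% of control gated cells (2.57 to 10.3%), and Y-linked genes in 4.63% and 3.70%. No gated cell had both. In the cushion gate Xist was in 23.5% and 1.06% of cells. The part of red cell RNA and of embryo sex in the ratios above was not tested.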

How the data were processed

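Dissociated hearts at E12.5 were profiled in 1 library per genotype with a droplet kit, Chromium v2 per the labels. The deposited values were UMI counts per gene and barcode, and the file headers name Cell Ranger 3.0.2. The submitters' processing notes name Seurat, and no source used here states the genome build. The mutant matrix listed 7181 barcodes, already filtered, and the control 6794880, unfiltered, with 48527471 and 49323576 UMIs in all. The same minimums were applied to both. The control number is larger than the barcode list of a v2 kit, so the chemistry is uncertain. Of 31053 gene identifiers, 99.6% matched GENCODE M21 (GRCm38), used for the position of Prmt1.

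UMIs were summed over the cells of each gate and library and divided by the total of the gate (CPM). Ratios are log2((CPM mutant + 10)/(CPM control + 10)). Levels have exact Poisson, shares exact Clopper-Pearson, differences of shares Newcombe's and plain ratios exact conditional binomial 95% intervals. Doublet scores followed the Scrublet method in each library, and all cells were kept. Thinning drew 1000 UMIs per cell without replacement.

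Genes compared had a mean of at least 50 CPM and at least 40 UMIs over both libraries; list members needed a mean of 10 CPM. Named were the 12 highest and 12 lowest ratios past 1.5-fold among genes with at least 50 CPM in 1 library whose ratio in the endothelial gate had the other sign or less than 50% of the size, leaving out mitochondrial, ribosomal, haemoglobin, sex-linked, model and gate genes. The 15 genes leading the gate, members of 5 lists at 10 CPM, and up to 4 members of each other list past 1.5-fold were named too. Some genes that meet this rule are not reported here. Any other gene named was picked with its values known. The gate, its members and all 36 lists were chosen with earlier results of these data known. Python 3.11.15, numpy 2.4.6, scipy 1.17.1, pandas 2.3.3 and scikit-learn 1.9.0 were used. The code for ratios and intervals was run on simulated Poisson counts. Those counts hold no spread between cells, so the run checks the calculation and not the ratios reported.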

Additional observations from a re-analysis of the deposited data

Results flagged for a closer look

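Among the 12 genes with the lowest ratios, 7 muscle genes had opposite signs in the Tcf21-positive gate and the endothelial gate on the log2 scale of mutant over control. The difference was not tested, and the 12 were selected partly for an endothelial ratio of the other sign or less than 50% of the size, so the contrast is a description. Myl7, a muscle marker outside the 12, was higher in the mutant in both gates, at 0.35 and 2.61. Myl4 was at -2.40 in the Tcf21-positive gate and 1.56 in the endothelial gate, and Smpx at -2.17 and 1.04. Actc1 was at -2.11 and 1.33, Myl2 at -2.02 and 2.19, and Myl3 at -1.97 and 1.59. Ankrd1 was at -1.56 and 1.70, and Chchd10 at -1.31 and 0.84. Without the gated cells of at least 5000 UMIs, Actc1, Smpx, Myl3 and Chchd10 changed sign in the Tcf21-positive gate, to 0.48, 0.92, 0.24 and 0.01. The summed cardiomyocyte markers of the endothelial gate were 1193 CPM in mutant and 378 CPM in control cells, and the part of free muscle RNA was not tested.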

How the results depend on the processing

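No paired analysis was possible because each genotype has 1 library and no test was made. Of 13 planned and 3 added alternatives, the added ones, chosen after seeing the data, left out cells of at least 5000 UMIs, left out the 3 such control cells, or thinned cells to 1000 UMIs before the gate. The 5 genes at least 2-fold above every other gate became 2 with 1 Tcf21 UMI as minimum, 8 with totals free of mitochondrial, ribosomal and haemoglobin genes, and 9 at 20 CPM. The 130 higher genes became 204 with at least 3 Tcf21 UMIs, 234 with those totals and 241 at 20 CPM, while the 84 lower genes ranged from 59 to 111. The 11 list medians past 0.3 became 17 with at least 3 Tcf21 UMIs, 3 with equal weight per cell, 7 without the deepest 10% of gated cells and 4 without cells of at least 5000 UMIs. With cells thinned before the gate the share difference was 4.54 points among all cells and 4.14 among low-muscle cells, and with 1 Tcf21 UMI the difference among low-muscle cells was -0.018 points. Some muscle ratios changed sign, while Myl4 (-3.47 to -0.26), Ankrd1 (-2.20 to -0.35) and Acta2 (-1.86 to -0.62) kept theirs in 15 settings. With Tcf21 at 4 or more per 10000, Actc1 was 0.37, Chchd10 0.012, Cited1 0.76, Myl3 0.18, Smpx 0.82 and the cardiomyocyte median 0.18. Without the 6% top doublet scores Chchd10 was 0.26, Cited1 0.64, Myl3 0.17 and Smpx 0.82. Without the deepest 10%, Actc1 was 0.52, Chchd10 1.25, Cited1 0.89, Myl3 0.32, Smpx 0.84 and the median 0.25. With gated cells thinned to 1000 UMIs Chchd10 was 0.29 and the median 0.060. Without cells of at least 5000 UMIs, Actc1 was 0.48, Chchd10 0.012, Cited1 0.83 (against 0 control UMIs, so set by the added 10 CPM), Myl3 0.24, Smpx 0.92 and the median, over the list genes that then reach 10 CPM, 0.24. Without the 3 control cells alone, Actc1 was 1.09, Chchd10 0.91, Cited1 0.96, Myl2 1.39, Myl3 1.63, Smpx 1.30 and the median 0.64. The ratios of Eif4b (1.26 to 2.82), Hnrnpu (0.79 to 1.53), Junb (-2.05 to -1.16), Egr1 (-1.72 to -1.17) and Mgp (-1.99 to -0.91) kept their direction in all 15 settings that gave them a value. Low counts limit single genes: Eif4b rests on 40 UMIs in mutant and 3 in control gated cells.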
